A study of Mus musculus with 16 samples.

Results

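Genes that govern how strongly a cell responds to Wnt ligands were followed in neonatal mouse cochleae with and without ablation of Lgr5-expressing supporting cells. They are the R-spondin receptors Lgr4, Lgr5 and Lgr6, the membrane E3 ligases Rnf43 and Znrf3, and the scaffold Axin2 with the nuclear factors Lef1 and Tcf7. They were chosen by gene symbol, and all 8 of them, out of 47729 genes with values, were among the 16994 genes tested.

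The 16 RNA sequencing libraries came from P4 cochleae, freed of neighbouring structures such as the lateral wall, with 4 libraries in each of 4 groups. All mice carried GLAST CreERT/+ and Rpl22 HA/+, so that tamoxifen tags ribosomes with HA in GLAST-Cre+ cells, chiefly of the greater epithelial ridge (GER) and inner phalangeal cells. DTR mice carried Lgr5 DTR/+ in addition, an allele that places the diphtheria toxin (DT) receptor under control of Lgr5, and control mice did not. The study's methods state DT and tamoxifen injections at P1 for both genotypes, but the controls are labelled as untreated. Of each homogenate of pooled cochleae, 5% was kept as input (all cells) and 95% went into immunoprecipitation of tagged ribosomes (IP). Values are reads on a gene scaled to a fixed library total (CPM). Libraries held 28089836 to 41966310 reads on genes, and a member had between 253 and 5077 reads in a library.

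Several features of the model bear on the values. Lgr5 itself carries the knock-in allele in DTR mice alone, so 1 altered Lgr5 copy, fewer Lgr5-expressing cells and less RNA per cell cannot be told apart, and for the other genes fewer cells of a type and less RNA per cell cannot be told apart in bulk libraries either. The control IP was depleted of 8 of 9 hair cell markers, 5 of 6 mesenchyme markers and 4 of 5 Schwann cell markers relative to control input (limma, adjusted p under 0.05). Slc1a3, which encodes GLAST, was not enriched, with an LFC of -0.20 ± 0.09 (log2 fold change ± SE, adjusted p = 0.102). Of the 7 GER and inner phalangeal markers 2 were higher (Igf2 and Fabp7) and 4 lower (Sparcl1, Tecta, Otoa and Calb1) in control IP. Of all tested genes 19.3% were higher and 20.7% lower there. Mean CPM went from 326 in control input to 3694 in control IP for Igf2, and from 248 to 368 for Fabp7. The paper reports Igf2 as enriched in the GER by in situ hybridization.

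R-spondins bind LGR receptors and, through them, draw the E3 ligases Rnf43 and Znrf3 away from the surface. These ligases otherwise remove Frizzled receptors, so R-spondin raises the response to Wnt. Once β-catenin is stabilised, it joins TCF/LEF factors in the nucleus, and among the genes that follow in many tissues are Axin2, Lgr5, Rnf43, Znrf3 and Lef1, some of which restrain the pathway again. In the neonatal cochlea Lgr5 marks a set of supporting cells that can divide or form hair cells, and it is the gene used here to direct the toxin.

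TCF/LEF factors recognise a short core that was searched on either strand, as CTTTGAA, or as CTTTGAT, or as CTTTGTA, or as CTTTGTT, in windows from 250 bases before to 50 after annotated starts (RefSeq, GRCm38.p6). It was present in 16.9% of 32851 windows. Of 11 windows that cover 6 of the members, 1 held it, at an internal start of Lef1 (plus strand). Of the other pathway genes only Sp5 was searched, a Wnt target that was called lower in DTR IP, and its window held 2. That call was lost under several alternatives given below. The other pathway genes called lower there (Rspo1, Lrp5, Nkd1, Notum and Cd44) were not searched, so the matches of this 1 gene cannot be set against the share of all windows. A link between the matches of Sp5 and its fall was not tested. The matches in Lef1 and Sp5 are shown with the core in capitals, so that a reader can see the sequence that the pathway's nuclear factors read. A match is a description of the letters and not of binding.
Lef1, chr3:131156136-131156165, 147 bases before the start: caacctcagaaTACAAAGtaggattgcatt
Sp5, chr2:70474690-70474719, 222 bases before the start: ttcctagagatAACAAAGacactttgtcac
Sp5, chr2:70474808-70474837, 104 bases before the start: ggcaaggccccCTTTGATcaggaaaatcca

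The first comparison asked how the members responded to damage in the tagged cells and in the whole tissue. Lgr5 and Lgr6 fell in DTR IP and in DTR input. Znrf3 rose in DTR input. None of Rnf43, Axin2, Lef1 and Tcf7 passed the test in either. In DTR IP against control IP, 0 members were higher and 2 lower (limma, Benjamini-Hochberg adjusted p under 0.05 over all tested genes), where 8.44% of all tested genes were higher and 7.3% lower. At an unadjusted p under 0.05 there were 4 members with limma, and 3 each with edgeR and DESeq2, which also called 0 higher and 2 lower. The share of all tested genes at an unadjusted p was not computed. Such counts, here and below, are therefore not a result about the listed genes. In DTR input against control input, 1 member was higher and 2 lower, where 7.17% of tested genes were higher and 5.21% lower. The median LFC was -0.00 in DTR IP and -0.02 in DTR input over all tested genes.

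**Figure D1:**
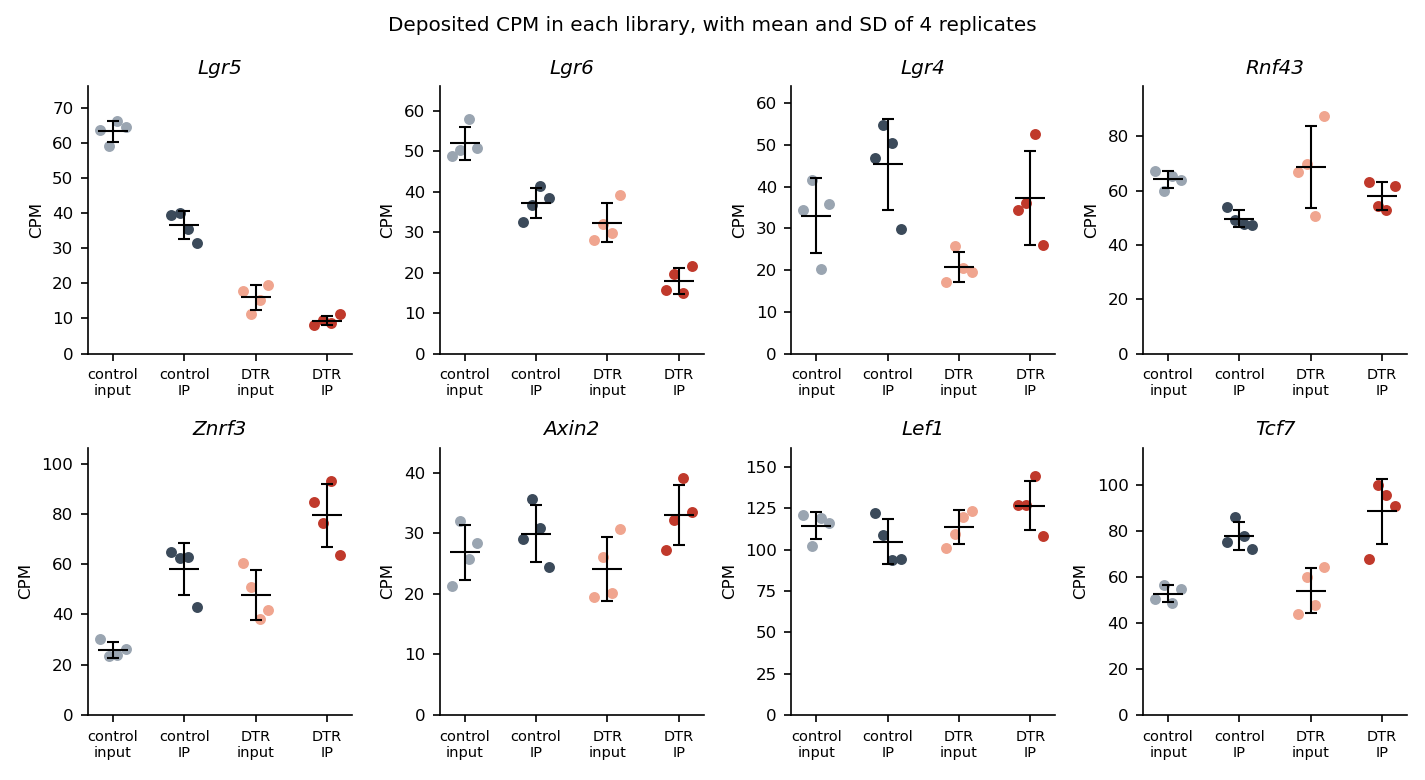
CPM of each member (y axis, linear, from 0) in each of the 16 libraries (points) by group (x axis), with the mean (horizontal line) and SD (bar) of 4 replicates. Lgr5 and Lgr6 step down from control to DTR without overlap in input and in IP, Znrf3 is lowest in control input (23.6 to 30.4 CPM), and Lef1 groups overlap throughout.

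Lgr5 (chr10:115450311-115587780, minus strand, GRCm38) is the gene that carries the toxin receptor, and its level checks the labels. In control input it was 63.6, 59.0, 66.1 and 64.4 CPM, and in DTR input 17.9, 11.2, 15.1 and 19.6 CPM. In control IP it was 39.3, 40.0, 35.5 and 31.4 CPM, and in DTR IP 8.13, 9.47, 8.61 and 11.3 CPM. Every DTR library lay below every control library of its kind, so no library went against its label. The LFC was -2.004 ± 0.15 in input (adjusted p = 2.23e-08) and -1.93 ± 0.15 in IP (adjusted p = 3.47e-08). Mean CPM in DTR libraries was 25.2% of control in input and 25.7% in IP, so transcripts of Lgr5 remained readily detectable, at 253 to 344 reads in the DTR IP libraries.

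Lgr6 (chr1:134983301-135105276, minus strand) encodes the second receptor to fall. Control IP libraries had 32.4, 36.7, 41.4 and 38.3 CPM and DTR IP libraries 15.7, 19.5, 15.01 and 21.7 CPM. The groups did not overlap, and the mean in DTR IP was 48.3% of control (LFC -1.08 ± 0.14, adjusted p = 2.99e-05). Control input libraries had 48.8, 50.3, 57.9 and 50.7 CPM against 28.2, 32.1, 29.8 and 39.0 CPM in DTR input, again without overlap and at 62.2% of control (LFC -0.69 ± 0.14, adjusted p = 0.00266). With the study's size criteria for damage, which also ask for an absolute LFC of at least 1 and a separation (lowest value of the higher group over highest of the lower) above 1.5, Lgr5 was the 1 member called in IP and in input, where 2.47% and 2.34% of tested genes were called. Lgr6 missed them in IP with a separation of 1.46 and passed without the separation criterion, without control IP replicate 1 and without DTR IP replicate 4, when 2 members were called.

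Lgr5 fell more than Lgr6 within the same libraries. The log2 ratio of Lgr5 to Lgr6 was -0.03 ± 0.27 in control IP and -0.89 ± 0.10 in DTR IP (SD, n = 4), and 0.28 ± 0.09 in control input and -1.03 ± 0.36 in DTR input. Both pairs of groups were apart (two-sided exact permutation test, p = 0.029, which is as small as 4 against 4 can give, and adjusted p = 0.038 over 4 such ratio tests). By numbered pair, the ratio was lower in DTR in 4 of 4 pairs in IP (differences of -1.18 to -0.54) and in 4 of 4 in input (-1.75 to -1.03), with p = 0.125 by the exact paired permutation test, the smallest that 4 pairs allow. The ratio tests were chosen after the values were seen. The knock-in allele and the loss of cells cannot be told apart in this ratio.

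Lgr4 (chr2:109917647-110014257, plus strand), the remaining receptor, is broadly expressed in epithelia. Its SE was the largest of the 8. Control IP libraries had 46.7, 54.7, 50.4 and 29.8 CPM and DTR IP libraries 34.3, 36.0, 52.7 and 26.0 CPM. These groups overlapped (LFC -0.33, 95% interval -0.81 to 0.14, adjusted p = 0.362). In input, control libraries had 34.3, 41.5, 20.3 and 35.9 CPM and DTR libraries 17.1, 25.8, 20.6 and 19.4 CPM. The low control input replicate 3 lay within the DTR range, and Lgr4 did not pass (LFC -0.65 ± 0.23, adjusted p = 0.071). Lgr4 was called lower without control input replicate 3 (adjusted p = 0.015), in the fit with a replicate block (adjusted p = 0.032) and by DESeq2 (adjusted p = 0.019), and its adjusted p over the alternatives ran from 0.015 to 0.210.

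**Figure D2:**
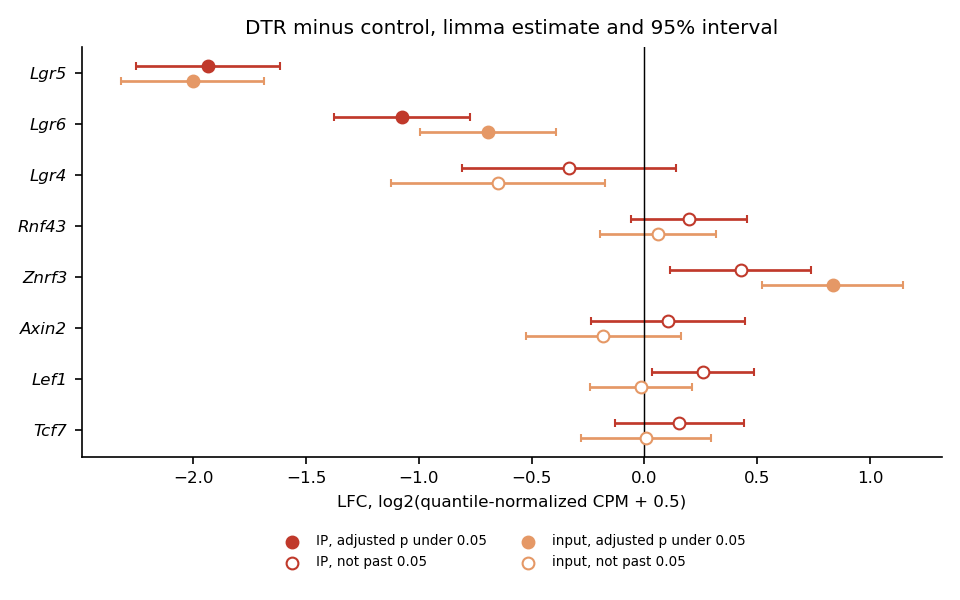
Limma estimates of the log2 fold change of DTR over control (x axis) for each member (y axis) in IP and in input, with 95% intervals and with filled points for an adjusted p under 0.05. Lgr5 lies near -2 in both, Lgr6 at -1.08 and -0.69, and Znrf3 at 0.43 and 0.83 to the right of 0, while intervals of Rnf43, Axin2 and Tcf7 span 0 in both.

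Of the E3 ligases, Znrf3 (chr11:5276324-5444847, minus strand) rose in DTR input, while Rnf43 did not pass in either comparison. Control input libraries had 30.4, 23.6, 23.9 and 26.1 CPM, and DTR input libraries 60.4, 50.8, 38.2 and 41.8 CPM. The groups did not overlap and the mean in DTR input was 184% of control (LFC 0.83 ± 0.15, adjusted p = 0.000676). In IP, control libraries had 64.8, 62.5, 62.8 and 42.8 CPM and DTR libraries 84.6, 76.3, 93.2 and 63.5 CPM. Replicate 4 was the lowest of both IP groups, and DTR IP replicate 4 lay inside the control range. Znrf3 did not pass in IP (LFC 0.43 ± 0.15, adjusted p = 0.059). It was called higher there with the replicate block (adjusted p = 0.015) and without DTR IP replicate 4 (adjusted p = 0.030), and its adjusted p over the alternatives ran from 0.015 to 0.169.

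Rnf43 (chr11:87662722-87735539, plus strand), the closest relative of Znrf3, had 67.3, 59.9, 65.3 and 64.1 CPM in control input and 66.9, 69.9, 50.5 and 87.5 CPM in DTR input. In IP it had 54.1, 49.2, 47.8 and 47.4 CPM in control and 63.1, 54.5, 53.0 and 61.8 CPM in DTR libraries. DTR and control overlapped in both kinds of library, with LFCs of 0.06 (95% interval -0.20 to 0.32, adjusted p = 0.842) and 0.20 (-0.06 to 0.45, adjusted p = 0.316). Within a library, the log2 ratio of Znrf3 to Rnf43 rose from -1.28 ± 0.14 in control input to -0.51 ± 0.39 in DTR input (SD, n = 4, exact permutation test, two-sided, p = 0.029, adjusted p = 0.038). In IP this ratio was 0.22 ± 0.24 in control and 0.45 ± 0.33 in DTR libraries (exact permutation test, p = 0.314, adjusted p = 0.314). By numbered pair, the ratio was higher in DTR in 4 of 4 pairs in IP (by 0.13 to 0.44) and in 4 of 4 in input (by 0.21 to 1.04), and the exact paired permutation test gave p = 0.125 for each, the smallest that 4 pairs allow. Whether the change of this ratio differed between input and IP was not tested.

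Axin2 (chr11:108920349-108950783, plus strand), a scaffold of the β-catenin destruction complex and a widely used readout of Wnt signalling, did not pass in either comparison. It was 29.01, 35.7, 30.8 and 24.4 CPM in control IP and 27.3, 32.2, 39.1 and 33.4 CPM in DTR IP, with overlap (LFC 0.10, 95% interval -0.24 to 0.45, adjusted p = 0.732). In control input it was 21.3, 31.96, 25.8 and 28.4 CPM and in DTR input 19.5, 26.1, 20.1 and 30.7 CPM (LFC -0.18, interval -0.53 to 0.16, adjusted p = 0.576). These intervals leave out a halving and a doubling of the level. The antisense gene Gm11670 overlaps exons of Axin2, and without a stated strand setting in the counting their reads cannot be told apart.

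Lef1 (chr3:131110471-131224356, plus strand) and Tcf7 (chr11:52252371-52283014, minus strand) encode DNA-binding partners of β-catenin. Lef1 was 122, 109, 93.6 and 94.3 CPM in control IP and 127, 127, 144 and 108 CPM in DTR IP. The groups overlapped and the LFC of 0.26 ± 0.11 did not pass (limma, adjusted p = 0.116). In input it was 102 to 121 CPM in control and 101 to 124 CPM in DTR libraries (LFC -0.01, 95% interval -0.24 to 0.21, adjusted p = 0.961). Tcf7 was 75.5, 86.4, 78.1 and 72.1 CPM in control IP and 68.0, 100, 95.6 and 90.9 CPM in DTR IP, where DTR replicate 1 was the lowest of all 8 (LFC 0.15, interval -0.13 to 0.44, adjusted p = 0.511). In input it was 48.7 to 56.7 CPM in control and 43.8 to 64.6 CPM in DTR libraries (LFC 0.01, interval -0.28 to 0.29, adjusted p = 0.986). Both genes give rise to short forms that lack the β-catenin-binding end, and counts per gene do not separate them. Gm43352 overlaps exons of Lef1 on the other strand.

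The next question was whether damage acted differently in tagged ribosomes and in the whole tissue. No member had a response in IP that differed from that in input (0 of 8, limma, and 0 at an unadjusted p under 0.05), where 0.0118% of tested genes were called. EdgeR and DESeq2 also called 0, with 2 and 1 members at an unadjusted p under 0.05. The difference of LFCs (IP minus input) was 0.07 for Lgr5 (95% interval -0.38 to 0.52), -0.38 for Lgr6 (-0.81 to 0.04) and -0.41 for Znrf3 (-0.85 to 0.03). The intervals of the last 2 thus reach from near 0 to -0.81 and -0.85.

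The last comparison asked which members were enriched on tagged ribosomes. It uses the same libraries as the comparisons of damage and is not independent of them. In control cochleae, Znrf3 and Tcf7 were higher in IP than in input, and Lgr5, Lgr6 and Rnf43 were lower. That is 2 members higher and 3 lower, where 19.3% and 20.7% of tested genes were. In DTR cochleae, 4 members were higher (Lgr4, Znrf3, Tcf7 and Axin2) and 2 lower (Lgr5 and Lgr6), where 18.6% and 20.5% of tested genes were. With the size criteria of the study for enrichment, which ask for an absolute LFC of at least 2, 0 members were called in either, where 1.26% and 0.977% of tested genes were. At an unadjusted p under 0.05 and without these criteria there were 5 and 6 members, again without a share of all tested genes.

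Znrf3 showed the largest enrichment of the 8 in control cochleae, with a mean CPM in IP of 224% of input (LFC 1.13 ± 0.15, adjusted p = 8.22e-06). In DTR cochleae its LFC was 0.72 ± 0.15 (adjusted p = 0.000791). IP and input did not overlap in either genotype. Tcf7 likewise had higher IP than input libraries in both, with LFCs of 0.55 ± 0.14 in control (adjusted p = 0.00340) and 0.70 ± 0.14 in DTR cochleae (adjusted p = 0.000528).

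Lgr5 was lower in IP than in input, at 57.8% of the input mean in control (LFC -0.80 ± 0.15, adjusted p = 0.000364) and 58.8% in DTR cochleae (LFC -0.73 ± 0.15, adjusted p = 0.000896). Its IP and input libraries were apart in control but overlapped in DTR cochleae, where IP replicate 4 had 11.3 CPM and input replicate 2 had 11.2 CPM. Lgr6 was also lower in IP, without overlap, at 71.7% in control (LFC -0.49 ± 0.14, adjusted p = 0.011) and 55.7% in DTR cochleae (LFC -0.87 ± 0.14, adjusted p = 0.000105). Among 8 markers of organ of Corti supporting cells, 3 were higher in control IP than in control input (Lfng, S100a1 and Sox2) and 2 lower (Fgfr3 and Ngfr). In DTR cochleae 1 was higher (Lfng) and 1 lower (Ngfr). The paper places Lfng and Sox2 in GER cells as well.

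Rnf43 was lower in control IP (LFC -0.37 ± 0.12, adjusted p = 0.021) and did not pass in DTR cochleae (LFC -0.23 ± 0.12, adjusted p = 0.142). The control call was lost without control input replicate 1 (adjusted p = 0.053), control input replicate 3 (0.050) or control IP replicate 2 (0.053), and when the trend of each library with exon length was removed (adjusted p = 0.080), with a range of 0.00506 to 0.080 over the alternatives. In DTR cochleae Rnf43 was called lower without DTR input replicate 3 (LFC -0.36, adjusted p = 0.020), with a range of 0.020 to 0.445.

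Lgr4 was higher in DTR IP than in DTR input without overlap (LFC 0.76 ± 0.23, adjusted p = 0.012), although not without DTR IP replicate 3 (adjusted p = 0.053, range 0.000995 to 0.053). In control cochleae its LFC was 0.45 ± 0.23 (adjusted p = 0.125), which passed without control IP replicate 4 (adjusted p = 0.045, range 0.045 to 0.405). Axin2 passed narrowly in DTR cochleae (LFC 0.42 ± 0.16, adjusted p = 0.048) with overlapping groups. Its call was lost without DTR input replicate 1 (adjusted p = 0.162) or replicate 3 (0.122), without DTR IP replicate 2 (0.072), 3 (0.149) or 4 (0.094), without the filter on low values (0.092) and with only the 2 groups fitted (0.084). Lef1 did not pass, with LFCs of -0.11 ± 0.11 in control and 0.16 ± 0.11 in DTR cochleae (adjusted p = 0.457 and 0.243).

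**Figure D3:**
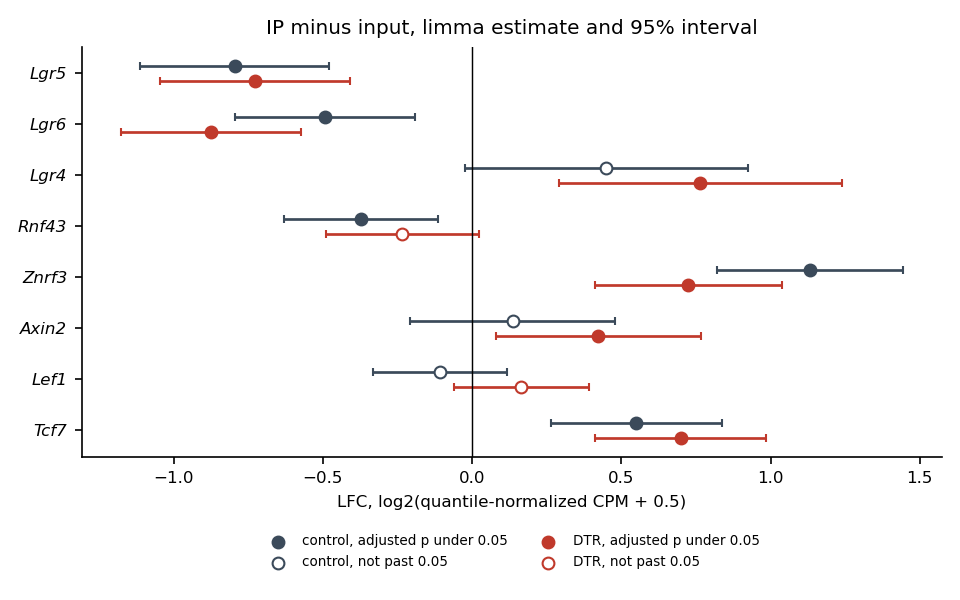
Limma estimates of the log2 fold change of IP over input (x axis) for each member (y axis) in control and in DTR cochleae, with 95% intervals and with filled points for an adjusted p under 0.05. Znrf3 and Tcf7 lie to the right of 0 and Lgr5 and Lgr6 to the left in both genotypes, and Rnf43 and Axin2 are each called in 1 genotype.

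Levels of different genes were compared per kilobase of annotated exon, taken over all transcripts of a gene (2.625 kb for Tcf7 and 8.788 kb for Lef1). The order depends on these lengths, and the annotation release used for counting is not given. In CPM, without this division, Lef1 was the highest member in every group, with a mean of 115 against 52.7 for Tcf7 in control input. Per kb, Tcf7 was the highest member in every group, with 20.1 ± 1.42 CPM per kb in control input and 33.8 ± 5.43 in DTR IP (SD, n = 4), followed by Lef1 with 13.0 ± 0.95 and 14.4 ± 1.67. In control input the order continued with Rnf43 (9.78 ± 0.48), Lgr6 (7.58 ± 0.60), Lgr5 (6.16 ± 0.30), Lgr4 (5.61 ± 1.53), Axin2 (4.88 ± 0.82) and Znrf3 (3.29 ± 0.40). Ranges of Lgr5 and Lgr4 overlapped there, as did those of Lgr4 and Axin2, and the other neighbours were apart. In DTR IP the order after Lef1 was Znrf3 (10.1 ± 1.60), Rnf43 (8.86 ± 0.78), Lgr4 (6.33 ± 1.90), Axin2 (5.995 ± 0.89), Lgr6 (2.62 ± 0.46) and Lgr5 (0.91 ± 0.14). There Znrf3 overlapped Rnf43, Rnf43 overlapped Lgr4 and Lgr4 overlapped Axin2. Lgr5 was thus at place 5 of 8 in control input and last in control IP, DTR input and DTR IP, while Znrf3 was last in control input, at place 5 in control IP, at place 4 in DTR input and at place 3 in DTR IP, with a range that overlapped that of its next neighbour in these last 3 groups.

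Genes whose pattern over the 16 libraries was most like that of a member were ranked by Pearson's r of log2 values, as a description without a test, since the libraries share group, pool and depth. For Lgr5 they were Cep41 (r = 0.98), Trhr (0.98) and Shc4 (0.98). Shc4, an adaptor of receptor tyrosine kinases, went from 86.1 ± 7.55 CPM in control input to 29.8 ± 1.70 in DTR input, and in IP from 49.1 ± 5.91 in control to 16.1 ± 1.33 in DTR cochleae (SD, n = 4). Cybrd1 was closest to Lgr6 (r = 0.98), with 152 ± 12.0 CPM in control IP and 77.7 ± 10.8 in DTR IP. E2f5, an E2F family transcription factor, was closest to Znrf3 (r = 0.98), with 46.4 ± 3.91 CPM in control input, 128 ± 22.1 in DTR input, 212 ± 44.1 in control IP and 319 ± 58.8 in DTR IP. For the other members they were Tcf7 with Qrfp (0.95), Rnf43 with Rbm19 (0.93), Lgr4 with Rnf170 (0.92), Axin2 with Stard9 (0.87) and Lef1 with Crot (0.79). Qrfp was low in every group, with means from 0.25 CPM in control input to 0.89 in DTR IP.

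Other genes of the pathway were taken from 5 lists with 39 genes, of which 36 were tested. In DTR IP 6 of the 36 were lower and 0 higher than in control IP, and in DTR input 3 were lower and 0 higher, to be read against the shares of all tested genes given above. At an unadjusted p under 0.05 there were 11 and 12 of the 36 with limma, again without a share of all tested genes. EdgeR called the same numbers in each direction. DESeq2 did so in IP, and in input it also called 1 gene higher, in the list of coreceptors and Dishevelled genes. In DTR IP the genes that fell were among R-spondins, coreceptors and Wnt targets, and in DTR input all were Wnt targets. None was called in either comparison in the lists of the destruction complex and of other TCF factors and nuclear partners.

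Among the ligands of the LGR receptors, Rspo1 had 4.09 to 6.90 CPM in control IP and fell to between 1.23 and 2.96 CPM in DTR IP, without overlap (LFC -1.18 ± 0.22, adjusted p = 0.00107). In input its LFC was -0.50 ± 0.22 (adjusted p = 0.176). Rspo2, another of these ligands, was 16.1 to 30.5 CPM in control IP and 18.7 to 31.1 CPM in DTR IP (LFC 0.14, adjusted p = 0.666). In input Rspo2 was 31.2 to 37.8 CPM in control and 40.7 to 52.6 CPM in DTR libraries, which did not pass (LFC 0.39 ± 0.17, adjusted p = 0.182) but did with the replicate block (0.046) and with only the 2 groups fitted (0.049), in a range of 0.046 to 0.381. Rspo3 had 5.64 to 8.61 CPM in control IP and 5.95 to 11.3 CPM in DTR IP (LFC 0.00, adjusted p = 0.996). Rspo4 was not tested and had at most 4 reads in a library.

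Lrp5, a coreceptor of Frizzled for Wnt ligands, had 5.49 to 7.76 CPM in control IP and fell to between 2.72 and 4.88 CPM in DTR IP (LFC -0.76 ± 0.18, adjusted p = 0.00751). Its partner Lrp6 did not pass (LFC 0.13 ± 0.10, adjusted p = 0.454). In the list of coreceptors and Dishevelled genes, 1 of 5 was lower and 0 higher, with a median LFC of 0.13. None of 7 genes of the destruction complex, β-catenin included, and none of 10 other TCF factors and nuclear partners passed in DTR IP with limma, edgeR or DESeq2. At an unadjusted p under 0.05 there were 1 and 2 of them with each of the 3 tools. Their median LFCs were 0.07 and -0.00. Ctnnb1, which encodes β-catenin, had an LFC of 0.28 ± 0.10 (adjusted p = 0.058) and Tcf7l2, another TCF factor, of -0.05 ± 0.14 (adjusted p = 0.871).

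Of 13 other Wnt target and feedback genes, 11 were tested and 4 were lower and 0 higher in DTR IP, with a median LFC of -0.35. Notum, a secreted enzyme that inactivates Wnt ligands, had 32.7 to 53.1 CPM in control IP and fell to between 17.0 and 32.7 CPM in DTR IP (LFC -1.14 ± 0.23, adjusted p = 0.00180) and from between 83.5 and 123 CPM to between 22.04 and 44.1 CPM in input (LFC -1.76 ± 0.23, adjusted p = 2.39e-05). Nkd1, which antagonises Dishevelled, had 175 to 210 CPM in control IP and fell to between 118 and 135 CPM in DTR IP (LFC -0.58 ± 0.10, adjusted p = 0.000471), and fell in input as well (LFC -0.80 ± 0.10, adjusted p = 1.64e-05). Control and DTR libraries were apart in both genes, although the IP groups of Notum met at 32.7 CPM.

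Cd44, a surface receptor for hyaluronan, fell in IP (LFC -0.60 ± 0.10, adjusted p = 0.000358) and in input (LFC -0.66 ± 0.10, adjusted p = 0.000174), without overlap. Sp5, a transcription factor, had 11.6 to 17.5 CPM in control IP and 7.94 to 11.7 CPM in DTR IP, with a slight overlap (LFC -0.66 ± 0.20, adjusted p = 0.028). Its call was lost without control IP replicate 3 (adjusted p = 0.097) or 4 (0.084), without DTR IP replicate 1 (0.090) or 2 (0.062), without the filter on low values (0.053) and with only the 2 groups fitted (0.065), in a range of 0.00288 to 0.097. In input the LFC of Sp5 was -0.47 ± 0.20 (adjusted p = 0.147), called with the replicate block (adjusted p = 0.041, range 0.041 to 0.356). Myc and Ccnd1 did not pass in IP, with LFCs of 0.30 ± 0.17 and -0.24 ± 0.16 (adjusted p = 0.258 and 0.353). Ascl2 and Dkk1 were not tested, with at most 35 and 9 reads in a library.

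**Figure D4:**
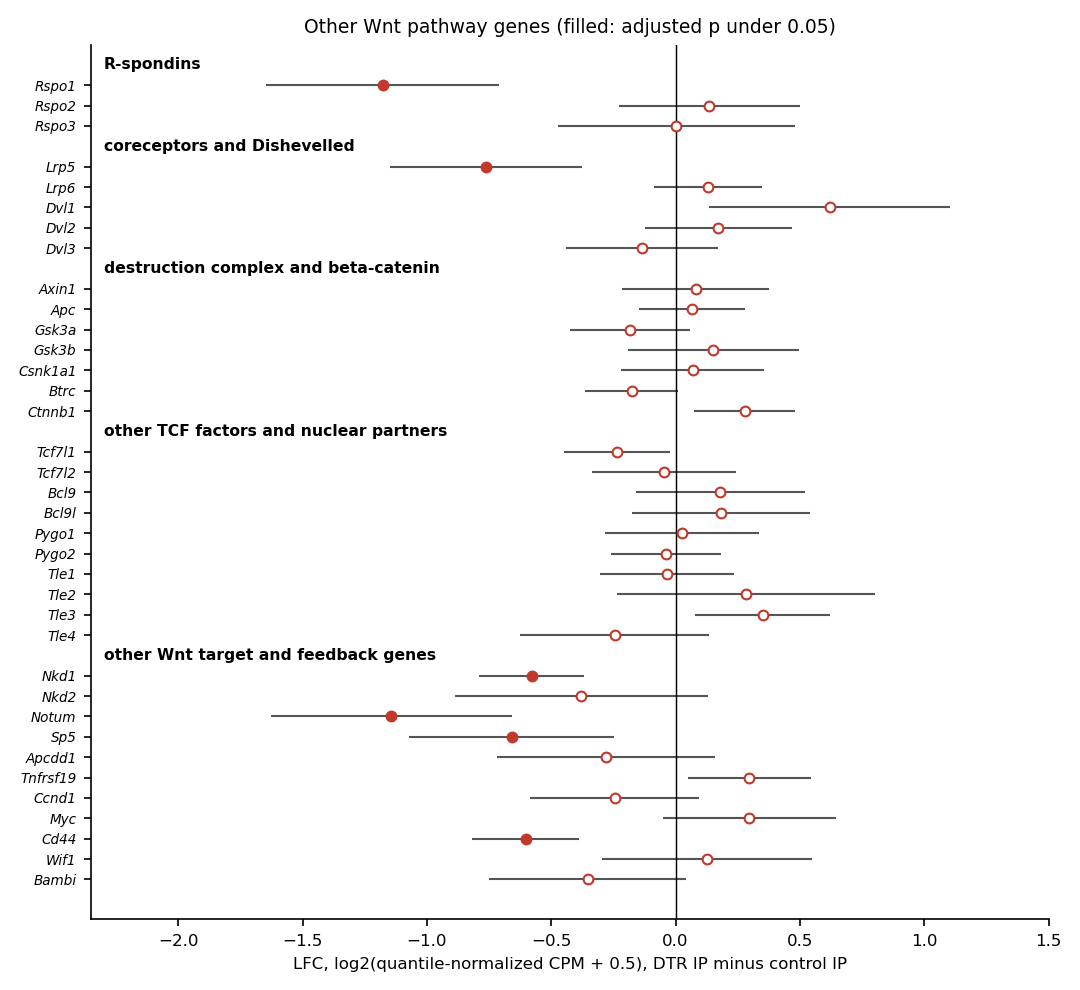
Limma estimates of the log2 fold change of DTR IP over control IP (x axis) with 95% intervals for the 36 tested pathway genes (y axis) in 5 lists, filled where the adjusted p was under 0.05. The 6 filled points (Rspo1, Lrp5, Nkd1, Notum, Sp5 and Cd44) all lie left of 0, and those of the destruction complex and of the TCF factors are open.

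Markers of several cell types moved with damage, and their values stand beside those of the members. Of 8 markers of organ of Corti supporting cells, 7 fell in DTR IP and all 8 in DTR input (median LFC -1.36 and -1.66). Their summed level was 1395 to 1567 CPM in control IP and 413 to 570 CPM in DTR IP, and 1074 to 1312 CPM in control input and 471 to 588 CPM in DTR input. Lgr5, Lgr6, Notum, Nkd1 and Cd44 moved in the same direction as this list. In IP the LFCs of this list were -4.08 for Lfng, -3.13 for Hes5, -2.52 for Fgfr3, -1.40 for Sox2, -1.32 for Jag1, -1.22 for Prox1 (adjusted p = 0.120), -1.20 for S100a1 and -0.69 for Ngfr, so that 3 were beyond the -1.93 of Lgr5 and 5 were nearer to 0. This list is not confined to the organ of Corti, since the paper names Lfng as a marker of supporting cells and of the GER. It also states that GER cells express Sox2 and Jag1. The part of lost supporting cells in each member's fall was not tested.

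All 5 cell division genes rose in DTR IP and 4 of 5 in DTR input, with sums in IP of 27.1 to 53.8 CPM in control and 110 to 149 CPM in DTR cochleae. In input these sums were 63.0 to 96.4 CPM in control and 134 to 165 CPM in DTR cochleae. Of 6 mesenchyme markers 4 rose in IP, and the median LFC of the list was 0.46 in IP and 0.20 in input. Macrophage markers rose, 4 of 5 tested in IP and 3 of 5 in input, with sums of 60.2 to 64.6 CPM in control input, 77.9 to 123 CPM in DTR input, 8.93 to 14.8 CPM in control IP and 21.6 to 34.5 CPM in DTR IP. Schwann cell markers fell, 2 of 5 in IP and 4 of 5 in input. Of 9 hair cell markers 3 rose and 1 fell in IP, and 1 fell in input. Of 4 endothelial markers 1 rose in IP. Of the 7 GER and inner phalangeal markers 2 were lower in IP, Fabp7 (mean of 368 CPM in control and 147 in DTR) and Tecta (2952 and 1563). In input 1 of the 7 was higher and 1 lower. The paper describes Fabp7 as expressed mainly in inner phalangeal cells. The part of these lists in the rise of Znrf3 in input was not tested.

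T lymphocytes express Tcf7 and Lef1 strongly, so their markers were followed too. The kinase gene Lck made up most of their summed level, with input levels of 7.996 ± 1.21 CPM in control and 20.3 ± 5.70 CPM in DTR cochleae, and IP levels of 12.9 ± 2.18 and 21.2 ± 4.31 CPM (SD, n = 4). The sum of 6 markers was 8.48 to 10.8 CPM in control input, 10.6 to 15.6 in control IP, 18.5 to 31.6 in DTR input and 19.4 to 29.3 in DTR IP. Of the 3 tested, Lck and Cd3d rose in IP, and these and Cd4 in input. Cd3d, a component of the T cell receptor complex, had at most 5 reads in a control library, against 45 to 84 reads in DTR input and 35 to 57 in DTR IP (LFC 1.84 ± 0.18 in input and 1.74 ± 0.18 in IP, adjusted p = 5.96e-07 and 1.28e-06). Cd3e, of the same complex, had at most 15 reads in any library and 3 reads or fewer in 2 or 3 libraries of each group, and Cd3g had at most 15. Cd8a, the remaining marker, was not tested and had 3 reads or fewer in 3 libraries of control IP and 3 of DTR IP. The part of T lymphocytes in the values of Tcf7 and Lef1 was not tested.

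**Figure D5:**
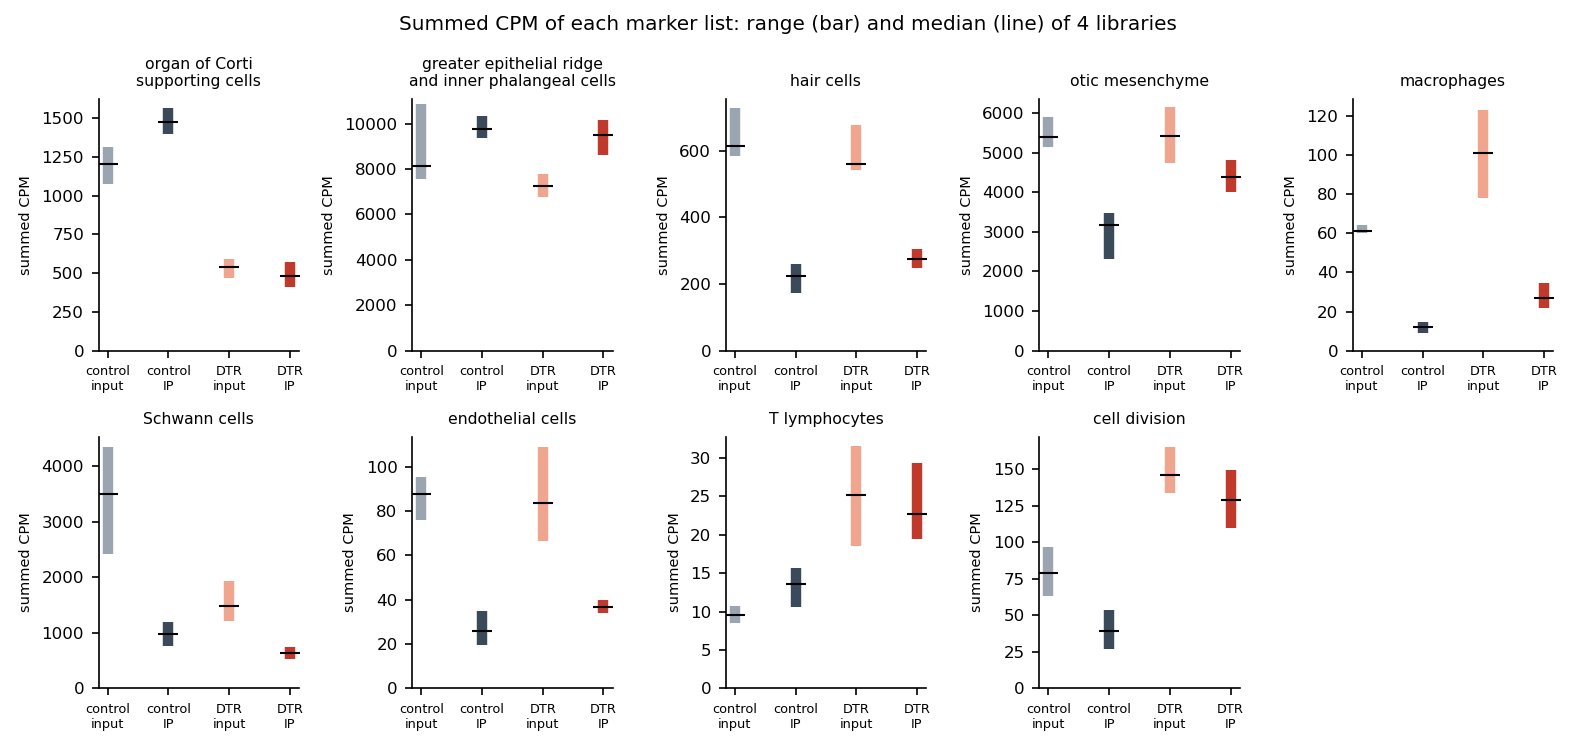
Summed CPM (y axis, linear, from 0) of each of 9 marker lists in the 4 groups (x axis), as the range (bar) and median (black line) over 4 libraries. The sum for organ of Corti supporting cells is lower and that for cell division higher in DTR than in control libraries of the same kind, without overlap.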

How the data were processed

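RNA of 16 libraries (SMART-Seq v4) was measured, with 4 replicates in each of the 4 groups. The authors deposited CPM per gene, made by alignment to GRCm38 (HISAT2 by the study's methods, TopHat by the submitters' processing notes) and counting with HTSeq, with annotation release and strand setting not given in the sources used here. All CPM were whole multiples of 1 read (100% within 0.05 reads), so read counts were recovered for edgeR and DESeq2. Of 50316 genes listed, 2587 were NA throughout. A count of 3 reads corresponded to 0.0715 to 0.107 CPM, which covers counting error only.

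CPM were quantile normalized, and a gene was kept if every replicate of some group reached 0.5 CPM. Group means of log2(CPM + 0.5) were fitted over all 16 libraries with limma 3.58.1 (R 4.3.3, trend, Benjamini-Hochberg over 16994 genes). Fold changes are on this scale and understate changes of low genes. The method was tested on simulated data with independent libraries, which does not check the effect of the pairing described below. Ratios within a library used the same values with an exact permutation test (scipy 1.17.1). Separation used a floor of 1.08 CPM, the 10th percentile. Exon lengths and gene positions came from GENCODE M21, and 99.7% of tested genes had a length.

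Alternatives were deposited CPM, median centring, pseudocounts of 0.1 and 1, other filters, edgeR 4.0.16, DESeq2 1.42.0, the compared groups alone, a replicate block, each library left out, and, added after the data were seen, removal of a length trend and the same alternatives for pathway genes. Input and IP of the same number come from 1 homogenate. Deviations of same-numbered libraries from their group means correlated in every pair of groups (r from 0.29 to 0.56). The numbers thus pair the samples, and the blocked value is given where it changes a call. For other numbers the means were -0.12 to -0.13. Such deviations cancel within a group, so these negative means follow from the same-numbered values and are not an independent reference. The fourth replicate carries another number in the deposited files than in its label. Replicates are pools of cochleae from several mice.

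The members and lists were chosen with earlier results of these data known. Named genes were all members, the genes most alike in pattern (3 for Lgr5 and 1 for each other member), pathway genes with an adjusted p under 0.05 and an absolute LFC of at least 0.5 in DTR IP against control IP, and every R-spondin. Others named (Slc1a3, Lrp6, Ctnnb1, Tcf7l2, Myc, Ccnd1, Ascl2, Dkk1 and markers) were picked after their values were seen.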

Additional observations from a re-analysis of the deposited data

Results flagged for a closer look

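Over 64 groups of 4 libraries (the members and 8 pathway genes), 3 had a library whose gap to the nearest other library, over the group's range, exceeded Dixon's 95% critical value, and chance alone marks about 1 in 20 groups. Znrf3 in control IP replicate 4 was 42.8 CPM, against 62.5 to 64.8 CPM in the other 3. Lrp5 in DTR IP replicate 3 was 2.72 CPM, against 4.56 to 4.88 CPM. Notum in DTR IP replicate 4 was 32.7 CPM, against 17.0 to 17.8 CPM. No named gene moved in opposite directions in IP and input in all libraries.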

How the results depend on the processing

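With the size criteria for damage, 2 members instead of 1 were called in DTR IP without the separation criterion, and leaving out 1 library gave 1 to 2. The second member was Lgr6, as reported above, whose separation of 1.46 with all libraries was under the required 1.5. Under all alternatives run, Lgr5 and Lgr6 kept their falls in both damage comparisons and Znrf3 its rise in input. Reversals concerned differences near 0 that never passed the test. The difference of responses for Lgr5 was -0.029 with edgeR, -0.0060 with DESeq2, -0.012 with the length trend removed and -0.090 to 0.168 with 1 library left out. With the length trend removed, Tcf7 in DTR input against control input was -0.019 and Lef1 in control IP against control input 0.039. With 1 library left out, DTR input against control input ran from -0.075 to 0.110 for Tcf7, -0.067 to 0.049 for Lef1 and -0.059 to 0.180 for Rnf43, and Rspo3 in DTR IP against control IP from -0.174 to 0.106. The replicate block left the members called at 3, 4, 5, 6 and 0 over the 5 comparisons. It added Znrf3 in DTR IP and Lgr4, Sp5 and Rspo2 in DTR input, as reported, and changed no other call. Paired by number, the exact permutation tests of the ratios cannot go below p = 0.125. With 3 libraries against 4, the ratio tests cannot reach 0.05 and their smallest p is 0.057.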
